A study of Mus musculus with 90 samples.

Results

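The 35 enzymes of glycolysis, gluconeogenesis and glycogen metabolism described here were chosen by name: each is a row of the expression table whose gene identifier is that of the mouse gene, and all 35 were found among 20414 genes. The rule uses names and no expression value, though the list was drawn up with earlier results of these data known. The list holds 21 genes of the route from glucose to lactate (the hexokinases Hk1, Hk2 and Hk3, Gpi1, the phosphofructokinases Pfkl, Pfkm and Pfkp, the aldolases Aldoa and Aldoc, Tpi1, Gapdh, Pgk1, the mutases Pgam1 and Pgam2, the enolases Eno1, Eno2 and Eno3, the pyruvate kinases Pkm and Pklr, and the lactate dehydrogenases Ldha and Ldhb), the regulatory enzymes Pfkfb1 to Pfkfb4, the gluconeogenic enzymes Fbp1, Fbp2, Pck1, Pck2 and Pcx, and the glycogen enzymes Pygm, Pygl, Pygb, Gys1 and Gys2. The liver-type isoenzymes of hexokinase and aldolase were not analysed here, so shares within those families are shares of the listed members.

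RNA was sequenced from 15 whole tissues of female C57BL/6J mice, an inbred laboratory strain, that were untreated and unmodified, housed singly and fed freely. In each tissue 3 libraries came from mice in estrus, the phase around ovulation, and 3 from mice in diestrus, the phase dominated by progesterone, which gave 30 groups and 90 libraries. The phases were read from vaginal smears, the labels give an age of 10 weeks while the methods of the study give a younger one, and the same mice gave all tissues, so tissues are not independent of each other. Values are FPKM, read fragments scaled to the length of the transcript and to the mapped fragments of the library, which can be compared between genes because they are per length.

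Glucose enters the cell, is phosphorylated by a hexokinase and is split and oxidised to pyruvate, which lactate dehydrogenase can reduce to lactate. Most steps are run by families of isoenzymes encoded by separate genes, and tissues are known for the member they use: muscle forms of phosphoglycerate mutase (Pgam2), enolase (Eno3) and glycogen phosphorylase (Pygm), brain forms (Eno2, Aldoc, Pygb) and liver forms (Pklr, Gys2, Pygl). Liver and kidney can also run the path backwards, from pyruvate to glucose, through pyruvate carboxylase (Pcx), phosphoenolpyruvate carboxykinase (Pck1 in the cytosol, Pck2 in mitochondria) and fructose bisphosphatase (Fbp1, Fbp2). The PFKFB enzymes make and break fructose 2,6-bisphosphate, the signal that speeds phosphofructokinase and slows fructose bisphosphatase.

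The stretch before the start of transcription was read for the members, because the mutases and enolases used in different tissues differed there in CpG content, whereas Fbp1 (ratio of observed to expected CpG 0.297) and Fbp2 (0.293) did not differ in this way. RefSeq starts of build GRCm38.p6 were listed for 34 members (53 starts, none for Gys2), and the 250 bases before each start were searched on both strands for CAGCTG (a muscle-type E-box), CACGTG and the ACGTG within it (the core of hypoxia and carbohydrate response elements), TATAAA and the MEF2 motif. Capitals in the sequences mark every match, and ACGTG read on the other strand appears as CACGT. The windows of the muscle enzymes Pgam2, Pygm and Eno3 are shown beside that of Pgam1, the mutase of nearly all other tissues, and the upstream start of Ldha.
Pgam2, chr11:5803797-5804046, minus strand: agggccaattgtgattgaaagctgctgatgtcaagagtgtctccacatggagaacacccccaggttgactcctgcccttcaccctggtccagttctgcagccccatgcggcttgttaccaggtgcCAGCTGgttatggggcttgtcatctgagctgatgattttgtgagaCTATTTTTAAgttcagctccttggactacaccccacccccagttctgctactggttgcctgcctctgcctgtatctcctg
Pgam1, chr19:41911621-41911870, plus strand: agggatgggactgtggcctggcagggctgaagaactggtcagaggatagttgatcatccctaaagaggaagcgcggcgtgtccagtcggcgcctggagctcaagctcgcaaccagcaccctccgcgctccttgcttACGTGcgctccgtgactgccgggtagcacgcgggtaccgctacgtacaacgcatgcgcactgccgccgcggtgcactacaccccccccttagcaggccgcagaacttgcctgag
Pygm, chr19:6384158-6384407, plus strand: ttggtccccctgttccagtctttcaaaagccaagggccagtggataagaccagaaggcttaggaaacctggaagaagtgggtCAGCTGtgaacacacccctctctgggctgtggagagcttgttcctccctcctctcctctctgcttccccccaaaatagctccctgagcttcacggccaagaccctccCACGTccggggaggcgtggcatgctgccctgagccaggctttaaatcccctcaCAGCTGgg
Eno3, chr11:70656926-70657175, plus strand: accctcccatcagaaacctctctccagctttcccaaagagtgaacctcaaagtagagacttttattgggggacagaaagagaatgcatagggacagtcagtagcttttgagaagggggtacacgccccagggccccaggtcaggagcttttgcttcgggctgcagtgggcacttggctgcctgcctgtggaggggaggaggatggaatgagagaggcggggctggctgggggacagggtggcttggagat
Ldha, chr7:46845554-46845803, plus strand: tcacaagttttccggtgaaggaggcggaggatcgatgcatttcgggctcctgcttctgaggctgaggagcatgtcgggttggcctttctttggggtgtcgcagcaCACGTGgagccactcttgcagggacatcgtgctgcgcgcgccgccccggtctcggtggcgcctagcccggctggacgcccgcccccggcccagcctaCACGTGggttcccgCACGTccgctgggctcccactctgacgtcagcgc
The Pgam2 window held 1 CpG dinucleotide and 1 match each to CAGCTG and MEF2, and the Pgam1 window held 22 CpG dinucleotides and neither motif. Pygm held 2 CAGCTG matches, Eno3 none of the motifs, and Ldha 2 CACGTG matches within 250 bases. CAGCTG stood in 10 of the 53 windows of the members (18.9%) and in 12.6% of the 19728 windows of all genes in the table. ACGTG stood in 19 of 53 (35.8%) against 18.6%, CACGTG in 6 (11.3%) against 7.02%, TATAAA in 3 (5.66%) against 10.0%, and MEF2 in 2 (3.77%) against 2.16%. Windows of 1 gene can overlap, as 2 of Aldoa do, and each is counted, so the 19 windows with ACGTG belong to 15 genes. All of these are letter matches and were not tested as sites.

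CpG content went with breadth of use across the 34 genes. For a gene with several starts, the window with the most CpG dinucleotides was used. The ratio of observed to expected CpG was at least 0.6 in 17 members and below it in 17, and 52.1% of all genes with a start reached 0.6. Breadth was put as tau, which is 0 for a gene at 1 level in all tissues and 1 for a gene of a single tissue. The median tau was 0.316 (0.171 to 0.569) in the CpG-rich members and 0.672 (0.18 to 0.862) in the CpG-poor ones. Among the windows used, Pgam2 (0.0571), Eno3 (0.156) and Pygm (0.191) had the lowest CpG ratios, and Ldha (0.886) and Pgam1 (0.860) the highest. Other starts of the same members had ratios as low as 0.0 (Aldoa, Pfkfb1) and as high as 1.13 (Pkm). The ranges of tau overlapped, and the CpG-poor genes Gapdh (tau 0.18), Hk1 (0.335), Pfkfb2 (0.347), Pfkl (0.382), Pck2 (0.415), Gys1 (0.427), Pfkm (0.534) and Pck1 (0.565) lay within the range of the CpG-rich ones. Over the 34 genes Pearson's r was -0.66 and Spearman's rho -0.591, given as a description across genes that share base composition and are not independent.

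The levels were set first against the tissue labels and the depth of the libraries. Each tissue held its own marker genes, for example 96534 to 121449 FPKM of summed fast fibre markers in skeletal muscle and 49827 to 53073 FPKM of cardiomyocyte markers in heart. The files give no read counts, so the depth behind a value is unknown, but 1 library, BAT estrus 3, listed 12048 genes at 0 against 2404 to 4820 in the others. Relative depth estimated from rarely detected genes was 0.0547 in BAT estrus 3, on only 3 such genes. In the others the estimate was 0.382 to 1.17, lowest in uterus estrus 3. That library listed 2985 genes at 0, fewer than the 3177 to 3327 of the other uterus libraries, and held markers of other epithelia. Whether its low estimate reflects depth was not tested. Another 9 libraries held over 1000 FPKM of a marker list, more than 5 times the median of the other libraries of their tissue: BAT diestrus 3 (fast muscle fibre), WAT estrus 1 and aorta estrus 1 (smooth muscle), duodenum estrus 1 (gastric epithelium), stomach estrus 1 (smooth muscle, stratified epithelium) and estrus 3 (stratified epithelium), ovary estrus 3 (oviduct), uterus estrus 3 (stratified and ciliated epithelium) and spleen estrus 2 (pancreatic acinar). All aorta and stomach libraries held smooth muscle markers (at least 1702 and 329 FPKM), and all stomach libraries stratified epithelium markers (at least 212 FPKM). There these lists need not mark another tissue. Results that rest on the libraries that stand apart are given with and without them. Blood was kept out of that rule. Erythroid markers met the same limits in 3 further libraries, WAT estrus 3 (5334 FPKM against a median of 367 in the others) and skeletal muscle diestrus 1 and diestrus 3 (1279 and 1077 against 137). The aorta libraries held 316 to 4853 FPKM of brown adipocyte markers and 344 to 4978 FPKM of cardiomyocyte markers, and the vein libraries 310.2 to 660.2 FPKM of neuron markers. In whole tissue, fewer cells of a type and less RNA per cell cannot be told apart.

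Skeletal muscle had the highest share of glycolytic transcripts of the 15 tissues. The 21 enzymes from glucose to lactate made up 6.80% ± 0.582 (SD, n = 6) of all FPKM there, 3.23% ± 0.215 in BAT and 2.45% ± 0.121 in heart. In the cerebrum the share was 1.73% ± 0.0710 and in the hypothalamus 1.58% ± 0.0902. The lowest shares were those of stomach (0.680% ± 0.0595), uterus (0.625% ± 0.113), liver (0.50% ± 0.0280) and spleen (0.382% ± 0.0220). The aorta libraries were the most uneven, from 0.644% in estrus 1 to 2.19%.

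The enzymes without a listed isoenzyme were found in every tissue. Gapdh, which makes 1,3-bisphosphoglycerate, ran from 756 FPKM in spleen to 10468 in skeletal muscle, and its levels in skeletal muscle lay above those of BAT (5421) in all libraries. Tpi1, triose phosphate isomerase, ran from 50.9 FPKM in spleen to 1195 in skeletal muscle, and Gpi1, glucose phosphate isomerase, from 93.5 in liver to 677 in BAT. Pgk1, the first enzyme of the path to yield ATP, was at 469.7 ± 29.5 FPKM in skeletal muscle and 425 ± 31.4 in BAT, and the libraries of these leading tissues overlapped.

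Across the 12 isoenzyme families and 15 tissues, 180 combinations in all, the same member led its family in all 6 libraries in 157. In 4 combinations, all of fructose bisphosphatase (WAT, cerebrum, hypothalamus and spleen), the family summed to less than 1 FPKM and no leader is named. In the other 176, the leader held in all 6 libraries in 155 and in fewer in 21.

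**Figure D1:**
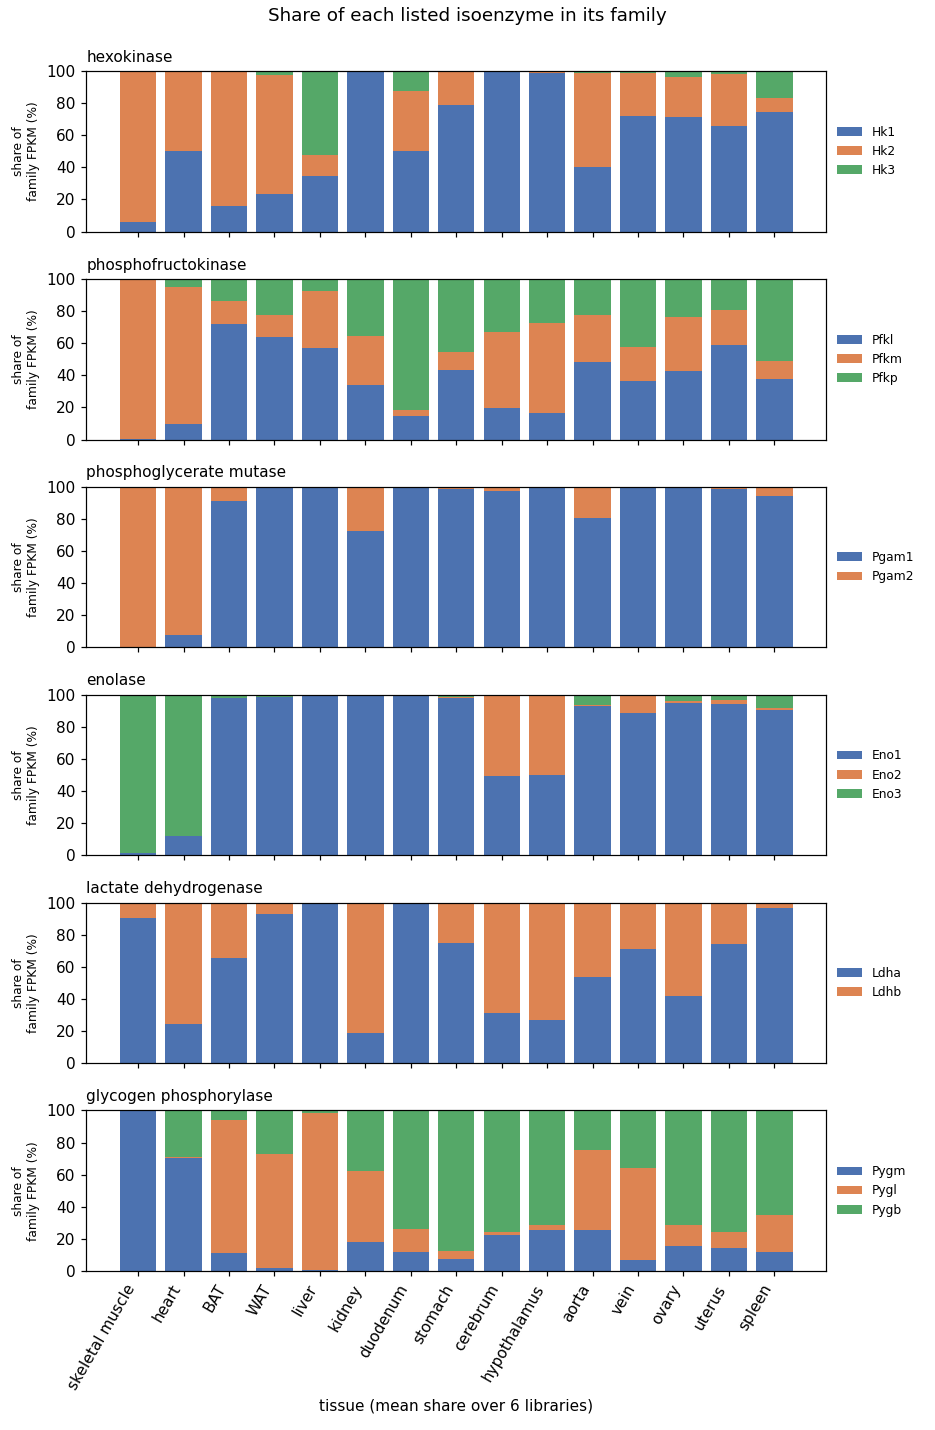
Share of the summed FPKM of a family held by each listed member (stacked bars, mean of 6 libraries) in each tissue, for 6 families. Pgam2 and Eno3 fill the skeletal muscle and heart bars, Eno1 and Eno2 are nearly even in cerebrum and hypothalamus, and Ldhb fills most of the heart and kidney bars.

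Of the listed hexokinases Hk1, a form bound to mitochondria, led in most tissues, and Hk2, the insulin-responsive form, led in skeletal muscle, BAT, WAT and aorta. The hexokinase-like Hkdc1, given below for duodenum against stomach, is outside the list and not part of these shares. Hk2 held 93.7% ± 1.29 (SD, n = 6) of the listed hexokinase in skeletal muscle and Hk1 nearly all of it in kidney (99.2% ± 0.222), cerebrum (99.1% ± 0.121) and hypothalamus (98.4% ± 0.139). In heart they were level, with Hk1 at 62.7 ± 5.25 and Hk2 at 61.3 ± 5.56 FPKM, and Hk1 led in 4 of 6 libraries. Hk3 was low everywhere and highest in spleen (6.61 ± 1.78 FPKM). In liver the 3 listed hexokinases together were scarce and Hk3 was the highest of them at 2.39 ± 0.839 FPKM.

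Phosphofructokinase, the committed step of glycolysis, split 3 ways. Pfkm, the muscle form, held 99.4% ± 0.122 in skeletal muscle and 85% ± 0.769 in heart, and also led in cerebrum (47.8% ± 1.7) and hypothalamus (55.8% ± 1.21). Pfkl, the liver form, led in BAT (72% ± 6.61), WAT and liver, although its level was 223 FPKM in BAT and only 8.41 in liver. Pfkp, the platelet form, led in duodenum (81.3% ± 4.61) and spleen (51% ± 1.82). In kidney the 3 forms were near equal, at 24.3, 21.4 and 25.1 FPKM for Pfkl, Pfkm and Pfkp, and Pfkp led in only 2 of 6 libraries.

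Of the listed aldolases Aldoa led in every tissue, from 71.1 FPKM in liver to 12438 in skeletal muscle. Aldoc, the brain form, reached 386 ± 40.7 FPKM in hypothalamus and 292 ± 21.4 in cerebrum, where its 6 libraries lay below all those of hypothalamus, and at most 14.8 elsewhere, in vein.

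Phosphoglycerate mutase divided striated muscle from the other tissues. Pgam2 held 99.4% ± 0.0924 of the family in skeletal muscle and 92.4% ± 0.79 in heart, and Pgam1 led in the other 13 tissues. Kidney was the third tissue for Pgam2, with 66, 102 and 135 FPKM in the estrus libraries and 113, 56.1 and 67.6 in the diestrus libraries, or 27.8% ± 6.65 of the family. The summed fast muscle fibre markers were 5.51 to 30.5 FPKM in those kidney libraries, and the part of muscle in the Pgam2 values was not tested. In BAT and aorta Pgam2 held 8.62% ± 8.56 and 19.3% ± 6.82, and there it moved with marker genes of muscle and heart, as given below with each comparison.

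Enolase followed the same line in muscle, with Eno3 at 98.2% ± 0.225 in skeletal muscle and 87.8% ± 1.01 in heart. In brain Eno1 and Eno2, the neuronal form, were even. Eno2 had a share of 49.8% ± 2.08 in cerebrum and led in 2 of 6 libraries, and its share was 48.9% ± 0.848 in hypothalamus. Eno1 led in the other 11 tissues and was highest in BAT at 2704 ± 175 FPKM, every library above those of aorta, the next tissue. Outside the brain Eno2 was highest in vein, with 85.4, 42.2 and 46.2 FPKM in the estrus libraries and 87.7, 72 and 89.4 in the diestrus libraries, beside neuron marker sums of 581, 320.0 and 310.2 FPKM in the estrus libraries and 640.1, 453 and 660.2 in the diestrus libraries. The libraries with the lower marker sums, vein estrus 2 and estrus 3, had the lower Eno2, and the part of nerve tissue in these values was not tested.

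Pyruvate kinase was Pkm in 14 tissues and Pklr, the liver and red cell form, in liver, with 88.8% ± 2.97 of the family. Pklr was also high in the duodenum, with 65.7, 174 and 157 FPKM in the estrus libraries and 131, 127 and 148 in the diestrus libraries against 98.4, 97.7 and 75.5 FPKM in the estrus libraries and 88.5, 124 and 113 in the diestrus libraries in liver. The libraries of duodenum and liver overlapped, and the lowest duodenal value was that of estrus 1, the library with gastric markers at 51739 FPKM, beside a Pklr level of 12.4 in stomach. In duodenum Pkm nevertheless led at 589 FPKM, while liver had only 12.2.

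Lactate dehydrogenase divided tissues into those led by Ldha, the form that favours lactate, and those led by Ldhb, the form that favours pyruvate. Ldhb held 81% ± 2.37 in kidney, 75.8% ± 0.659 in heart, 73.3% ± 2.2 in hypothalamus, 68.7% ± 4.3 in cerebrum and 58.4% ± 3.82 in ovary. Ldha held nearly all in liver and duodenum, where Ldhb was at 0.943% ± 0.157 and 1.04% ± 1.08. Its highest levels were 1692 FPKM in skeletal muscle and 1238 in BAT, and those of Ldhb were 1261 in heart and 1009 in kidney.

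Among the regulatory PFKFB enzymes Pfkfb3, the form with the strongest kinase activity, led in 11 tissues and was highest in BAT (209 ± 83.9 FPKM) and WAT (169.9 ± 34.9), whose libraries overlapped. Pfkfb1, the liver and muscle form, led in liver alone (16.1 FPKM) but was highest in WAT (57.6 ± 11.1). Pfkfb2, the heart form, led in heart at 21.2 ± 1.88 FPKM, above every library of stomach, the next tissue. Pfkfb4 led in duodenum in 5 of 6 libraries, at 30.1 ± 8.01 FPKM.

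The gluconeogenic enzymes reached far beyond liver and kidney, though not together. Fbp1 was highest in kidney (674 ± 57.8 FPKM), liver (649 ± 60.6) and, lower, duodenum (20.8 ± 8.29), with at most 1.47 in any other. Fbp2, its muscle form, was highest not in skeletal muscle (35.9 ± 9.69) but in duodenum, with 111, 205 and 182 FPKM in the estrus libraries and 178, 178 and 184 in the diestrus libraries, every library above every library of skeletal muscle. Fbp1 and Fbp2 are neighbours on chromosome 13 with 0 protein-coding genes between them, and duodenum and kidney were the tissues where both were above 10 FPKM. Pck1 was at 1393 ± 324 FPKM in kidney, 1265 ± 369.8 in BAT, 962 ± 225 in liver, 853 ± 476 in aorta and 604 ± 239 in WAT, and neighbours in that order overlapped. The aorta libraries held 182 to 2315 FPKM of adipocyte markers and 316 to 4853 FPKM of brown adipocyte markers, and the part of fat in their Pck1 was not tested. Pck2 led over Pck1 in 7 tissues and was highest in ovary (29.5 ± 3.89 FPKM). Pcx, which also feeds the citrate cycle, was highest in WAT (586 ± 107 FPKM) and 77.1 in liver.

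Glycogen phosphorylase, which frees glucose from glycogen, followed muscle, liver and brain lines. Pygm held 99.9% ± 0.0522 in skeletal muscle and 70.8% ± 1.61 in heart, and Pygb held most of the rest in heart, at 232 ± 22.4 FPKM the highest Pygb of any tissue. Pygl held 97.4% ± 0.641 in liver and 82.7% ± 14.9 in BAT, and its level was 281 ± 87.1 FPKM in BAT against 111 ± 16 in liver. Glycogen synthase was Gys1 in 14 tissues, highest in skeletal muscle (160.4 ± 17.2 FPKM), and Gys2 in liver (86.7 ± 32.8 FPKM, 98.4% ± 0.315 of the family). Gys2 was also at 35.4 FPKM in BAT and 29.5 in aorta, and at or below 0.28 in heart, skeletal muscle, brain, gut, ovary, uterus and spleen. The aorta libraries held adipocyte markers, and the part of fat in their Gys2 was not tested.

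Some of these genes have near copies that can take up their reads. The copies Eno1b, Gapdhs, Aldoart1, Aldoart2, Pgk2 and Ldhc had tissue means of at most 1.96, 3.83, 0.173, 0.0800, 0.0267 and 0.453 FPKM, small beside Eno1, Gapdh, Aldoa, Pgk1 and Ldha, whose values are nevertheless uncertain by the reads that the counting program split between them.

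Related tissues were then compared in 7 pairs, chosen to ask which isoenzymes separate tissues of like function. Differences are on the log2(FPKM + 1) scale, which understates those of low genes. A gene was called where the difference reached 1 and the adjusted p was no higher than 0.05 (limma moderated test on 6 against 6 libraries with phase as a term, Benjamini-Hochberg over all genes tested). Over the 7 pairs 94 of 216 tests of members (43.5%) were called, 54 higher and 40 lower in the first tissue, beside 22.2% of all genes. In both directions the members' shares are given beside those of all genes, with no test of the list.

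Skeletal muscle and heart are both striated muscles, and of the 7 pairs they had the highest share of members called. Of 29 members tested 16 were called higher and 9 lower in skeletal muscle, beside 5.56% and 22.7% of all genes (28.3% in either direction). The median difference of the members was 1.08 and that of all genes -0.46. With the upper quartiles set equal it was -0.08 for all genes and 24 members were called. The muscle isoenzymes were higher in skeletal muscle. Pygm was at 2318 to 3118 FPKM (median 2629) in skeletal muscle and 529 to 614 FPKM (median 562) in heart, a difference of 2.24 ± 0.08 (SE, adjusted p = 2.37e-11), with no overlap. Aldoa, with 10792 to 14368 FPKM (median 12020.3) against 2119 to 2446 FPKM (median 2128), differed by 2.50 ± 0.09 (SE, adjusted p = 2.85e-11). Eno3 (1.91), Pgam2 (1.54) and Pfkm (1.55) went the same way, and Pfkfb3 (3.16) and Pfkfb4 (2.80) further. Pfkfb1 (1.56), Pcx (1.62), Gys1 (1.64), Tpi1 (1.41), Pkm (1.33) and Pgk1 (1.08) were also higher.

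Among the 9 members called lower in skeletal muscle, Pygb was at 1.39 to 2.36 FPKM (median 1.92) in skeletal muscle and 199 to 258 FPKM (median 236) in heart, a difference of -6.34 ± 0.09 (SE, adjusted p = 2.90e-15), the largest of the pair. Hk1 differed by -3.84, Pfkl by -3.19, Pfkp by -2.76, Pgam1 by -2.25, Pfkfb2 by -2.06, Eno1 by -1.03 and Pck2 by -1.06, the last pair not called with the upper quartiles set equal. Ldhb, at 48.7 to 307 FPKM (median 220.2) against 1184 to 1362 FPKM (median 1255), differed by -3.13 ± 0.36 (SE, adjusted p = 2.80e-06), while Ldha was higher in skeletal muscle by 2.06. Hk2, at 54.9 ± 13.3 and 61.3 ± 5.56 FPKM, was not called, with a difference of -0.18 and a 95% interval of -0.42 to 0.05. The call of Gapdh (1.02) was lost without replicate 3, at 0.96, and that of Pck1 (1.13), whose libraries overlapped, without replicate 2, at 0.80.

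The balance between isoenzymes was tested on its own, as the log2 ratio of a pair of members, each as FPKM + 1, in each library, with an exact two-sided permutation test over the 12 libraries of a tissue pair. Over 103 tests, adjusted together, 73 passed 0.05, and the smallest p that 6 against 6 libraries can give is 0.00216. Where 1 member of a ratio is near 0, the ratio mainly follows the other member. Ratios of other genes were not tested as a background. Between skeletal muscle and heart 13 of 15 ratios passed, all 13 without overlap. These include ratios with a member near 0, as Aldoc in heart (0.0933 FPKM) and Fbp1 in skeletal muscle (0.0). Of all genes in this pair, 9830 of 11452 stood at an unadjusted p under 0.05 (limma). The log2 ratio of Pygm to Pygb was 8.58 higher in skeletal muscle, that of Pfkm to Pfkl 4.74, that of Pgam2 to Pgam1 3.79, that of Hk2 to Hk1 3.66 and that of Eno3 to Eno1 2.94. That of Ldhb to Ldha fell by 5.19 (each p = 0.00216, adjusted p = 0.00398, exact permutation test). The ratio of Pfkp to Pfkl (0.44, exact p = 0.0671, adjusted p = 0.0886) and that of Pfkfb1 to Pfkfb3 (-1.61, exact p = 0.039, adjusted p = 0.0535) did not pass.

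**Figure D2:**
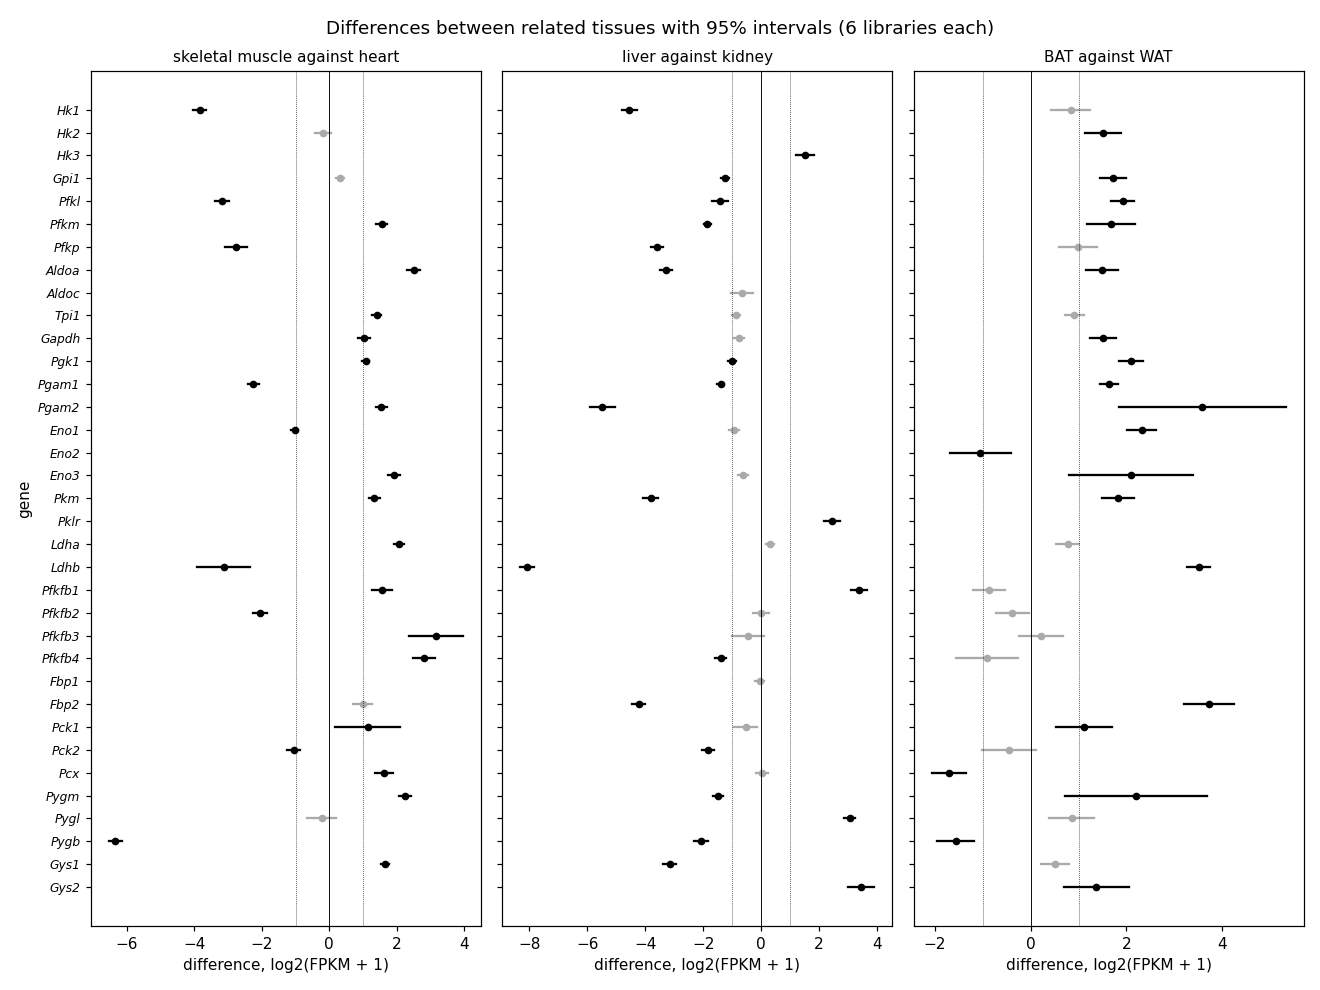
Difference of each tested member between paired tissues on the log2(FPKM + 1) scale (points) with its 95% interval (lines), black where called and grey where not, dotted lines at a difference of 1 in each direction. In skeletal muscle against heart Pygb lies furthest to the left at -6.34, in liver against kidney Ldhb at -8.06, and in BAT against WAT most members lie to the right, with wide intervals for Pgam2, Eno3 and Pygm.

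Liver and kidney are the organs that release glucose. Of 33 members 5 were called higher and 17 lower in liver, beside 8.28% and 35.8% of all genes (44.1% in either direction), with a median of -1.01 for the members and -0.74 for all genes. That background shift depended on scaling, at -0.19 with the upper quartiles set equal and -0.91 with the totals set equal. The calls of Gpi1, Pfkl, Pgam1 and Pgk1 were lost with the upper quartiles set equal, at -0.60, -0.82, -0.76 and -0.37, which left 18 called. Ldhb was at 2.05 to 3.6 FPKM (median 2.77) in liver and 852 to 1167 FPKM (median 1032) in kidney, a difference of -8.06 ± 0.11 (SE, adjusted p = 4.46e-16), the largest of any member in any pair. Pgam2 differed by -5.48, Hk1 by -4.54, Fbp2 by -4.22, Pkm by -3.81, Pfkp by -3.60 and Aldoa by -3.29. Gys1 (-3.15), Pygb (-2.07), Pfkm (-1.86), Pygm (-1.49) and Pfkfb4 (-1.40) were lower in liver too.

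Gys2 and 4 other members were called higher in liver. Gys2 was at 47.2 to 134 FPKM (median 81.9) in liver and 4.82 to 7.57 FPKM (median 6.78) in kidney, a difference of 3.45 ± 0.21 (SE, adjusted p = 2.15e-09). Pfkfb1 was higher by 3.38, Pygl by 3.05, Pklr by 2.45 and Hk3, at low level, by 1.51. Of the 5 gluconeogenic enzymes Fbp2 (-4.22) and Pck2 (-1.83) were called lower in liver, and 3 were not called, with differences of -0.06 for Fbp1, with a 95% interval of -0.22 to 0.10, 0.03 for Pcx (-0.17 to 0.23) and -0.54 for Pck1 (-0.94 to -0.13). Of 15 isoenzyme ratios 14 passed, and 12 did not overlap. The log2 ratio of Ldhb to Ldha fell by 8.37 in liver, and those of Gys2 to Gys1 and of Pklr to Pkm were higher by 6.60 and 6.26 (adjusted p = 0.00398 each, exact permutation test).

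BAT, which burns fat and glucose for heat, had higher glycolytic enzymes than WAT. Of 31 members 17 were called higher and 3 lower in BAT, beside 7.07% and 15.1% of all genes (22.2% in either direction), with a median of 1.37 for the members and -0.30 for all genes. With the totals set equal the split was 16 higher and 6 lower, and the median of all genes was -0.58. Eno1 was at 2396 to 2912 FPKM (median 2725) in BAT and 397 to 640.4 FPKM (median 598) in WAT, a difference of 2.32 ± 0.14 (SE, adjusted p = 1.31e-07), with no overlap. Pgk1 was higher by 2.10, Pfkl by 1.92, Pkm by 1.82, Gpi1 by 1.72, Pgam1 by 1.64, Gapdh by 1.51, Hk2 by 1.51 and Aldoa by 1.49. Ldhb, at 590.0 to 705 FPKM (median 648) against 42.9 to 70.8 FPKM (median 55.8), differed by 3.51 ± 0.11 (SE, adjusted p = 1.04e-09), and Fbp2, nearly absent from WAT, by 3.72. Pfkm (1.68) and Gys2 (1.37, not called without replicate 1) were higher too.

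Pcx (-1.71), Pygb (-1.57) and Eno2 (-1.05) were lower in BAT, and the call of Eno2 was lost without the libraries that stand apart, at -0.67. The call of Pck1 (1.11), whose libraries overlapped, was lost with the totals or the upper quartiles set equal, at 0.88 and 1.00, and without WAT estrus 3, the library rich in blood markers, at 0.92. Pgam2 was at 42.5, 35.4 and 76.1 FPKM in the estrus libraries and 8.59, 1.53 and 152 in the diestrus libraries, Eno3 at 47.3, 51.1 and 36.3 FPKM in the estrus libraries and 14.7, 5.69 and 162 in the diestrus libraries and Pygm at 36.8, 37.5 and 9.29 FPKM in the estrus libraries and 10.4, 3.43 and 129 in the diestrus libraries, beside fast muscle fibre marker sums of 1619.5, 1798 and 1119.6 FPKM in the estrus libraries and 355, 36.6 and 6649.7 in the diestrus libraries. The highest and lowest libraries of all 3 genes were diestrus 3 and diestrus 2, as for the markers. All 3 overlapped with WAT. Their differences (3.58, 2.09 and 2.2) were called also without the libraries that stand apart, those of Eno3 and Pygm not without replicate 1, and the part of muscle in them was not tested. Of 14 ratios 11 passed and 7 did not overlap, among them Ldhb to Ldha (2.74), Pygl to Pygb (2.42) and Eno2 to Eno1 (-3.37).

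Cerebrum and hypothalamus had the fewest members called. Of 27 members 1 was called higher and 0 lower in cerebrum, beside 4.25% and 4.73% of all genes (8.98% in either direction). At an unadjusted p under 0.05 stood 18 of the 27 members, beside 9845 of all 13280 genes tested. The member called was Pgam2, at 5.87 to 7.57 FPKM (median 7.0) in cerebrum and 1.91 to 3.79 FPKM (median 2.83) in hypothalamus, a difference of 1.10 ± 0.11 (SE, adjusted p = 2.33e-06). Without replicate 2 it was 0.98 and no longer called. With the totals set equal 1 member was called higher and 1 lower. The medians were -0.08 for the members and -0.17 for all genes. Of 14 ratios 6 passed and 5 did not overlap, the largest being Pgam2 to Pgam1 (1.17), with Eno3 to Eno1 at -0.68, Aldoc to Aldoa at -0.59 and Hk2 to Hk1 at -0.52.

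Duodenum and stomach differed in both directions. Of 33 members 9 were called higher and 5 lower in duodenum, beside 12.1% and 12.0% of all genes (24.1% in either direction), with medians of 0.23 and -0.06. Pck1 was at 12.9 to 109 FPKM (median 24.6) in duodenum and 0.18 to 2.09 FPKM (median 0.655) in stomach, a difference of 4.26 ± 0.44 (SE, adjusted p = 1.21e-05). Fbp1 was higher by 4.21, Pklr by 3.31, Pfkfb4 by 2.62 and Fbp2 by 2.51, so that fructose bisphosphatase, Pck1 and liver-type pyruvate kinase were all higher in duodenum. Ldhb was at 3.8 to 17.8 FPKM (median 6.17) in duodenum and 57.1 to 208 FPKM (median 129) in stomach, a difference of -4.02 ± 0.37 (SE, adjusted p = 4.15e-06), and Hk1 (-2.94), Pygb (-1.78), Hk2 (-1.43) and Gys1 (-1.09) were lower too. Pfkp (1.46), Aldoc (1.44), Tpi1 (1.22) and Ldha (1.11) were higher in duodenum. Without replicate 2 Gys1 (-0.95) and Ldha (0.99) were no longer called. Without duodenum estrus 1 and the 2 stomach libraries that stand apart 14 members were still called. Of 15 ratios 13 passed and 8 did not overlap.

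Ovary and uterus differed in few members. Of 31, 2 were called higher and 3 lower in ovary, beside 10.4% and 8.66% of all genes (19.0% in either direction). With the totals set equal the split was 5 higher and 2 lower, so the direction of the balance of calls turned with scaling. Pfkm was at 17.4 to 27.9 FPKM (median 22.7) in ovary and 6.66 to 13.4 FPKM (median 8.91) in uterus, a difference of 1.17 ± 0.17 (SE, adjusted p = 0.000221), and Ldhb was higher by 1.02 with overlap. Pfkfb3 (-1.86), Pck1 (-1.28) and Ldha (-1.08) were lower in ovary. The call of Ldhb was lost without the libraries that stand apart and without replicate 3 (1.00 and 0.75), those of Pfkfb3 and Pck1 without replicate 2 (-1.56 and -1.36) and that of Ldha with the totals set equal (-0.99). Of 15 ratios 9 passed and 5 did not overlap, with Ldhb to Ldha at 2.09.

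Of 32 members 4 were called higher and 3 lower in aorta, beside 1.84% and 9.12% of all genes (11.0% in either direction). Without aorta estrus 1, whose adipocyte markers were at 182 FPKM against 2073 to 2315 in the others, 12 were called, and without replicate 1 of both tissues 11. Pgam2 was at 8.21, 115 and 111 FPKM in the estrus libraries and 90.1, 81.5 and 70.4 in the diestrus libraries in aorta and 1.88 to 3.43 FPKM (median 2.12) in vein, a difference of 4.28 ± 0.53 (SE, adjusted p = 7.52e-05). The library low in Pgam2 was estrus 1, and cardiomyocyte markers in aorta were at 344, 4504 and 4978 FPKM in the estrus libraries and 3660.3, 3704 and 2516 in the diestrus libraries. Eno3 (3.05) and Pygm (2.27) were higher in aorta as well, and the part of heart or brown fat in these values was not tested. Eno2 (-4.24), Aldoc (-3.20) and Hk1 (-1.34) were lower in aorta, with the neuron markers of the vein libraries given above. Ldhb (1.29) was no longer called with the replicate block, without replicate 2 or without replicate 3.

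**Figure D3:**
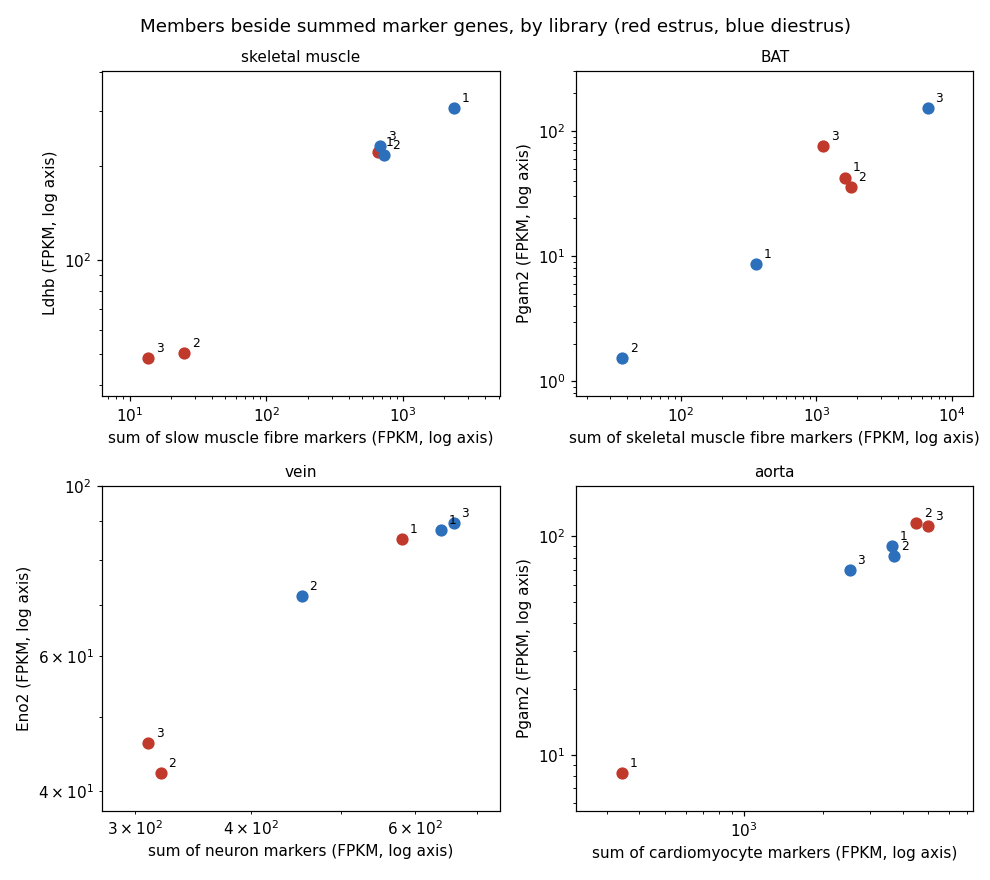
FPKM of a member (vertical, log axis) against the summed FPKM of a marker list (horizontal, log axis) in each of 6 libraries, numbered by replicate, for Ldhb in skeletal muscle, Pgam2 in BAT, Eno2 in vein and Pgam2 in aorta. In each panel the library or libraries lowest in the markers are lowest in the gene, as for skeletal muscle estrus 2 and 3.

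Other genes of glucose and glycogen metabolism, transporters, regulators and accessory enzymes, were read beside the members. In the 7 pairs 49 of 274 tests were called higher and 39 lower (32.1% in all), beside 22.2% of all genes, and the shares of all genes in each pair are those given above. Between skeletal muscle and heart 11 were called higher and 10 lower, with the largest differences in Slc16a3, the lactate exporter (5.39), the glycogen phosphorylase kinase subunits Phkg1 (3.99), Phka1 (3.36) and Phkb (2.78), and Ppp1r3b, a glycogen-targeting subunit of protein phosphatase (-2.87). In liver against kidney 7 were higher and 15 lower, led by Gckr (5.88), Ppp1r3b (5.03), Pdk3 (-4.18), the glucose transporter Slc2a4 (-3.78) and Ppp1r3c (2.89). In BAT against WAT 13 were higher and 3 lower, led by Pdk4, a brake on pyruvate oxidation (4.17), the coactivator Ppargc1a (3.22), the monocarboxylate transporter Slc16a1 (2.67), Dlat (1.81) and Ppp1r3b (1.73).

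In duodenum against stomach 7 were higher and 7 lower, led by the transporter Slc2a2 (6.67), the hexokinase-like Hkdc1 (5.84), the glucose-sensing factor Mlxipl (5.61), Slc16a7 (-3.83) and Ppp1r3a (-2.67). In ovary against uterus 8 were higher and 2 lower, led by Mlxipl (2.04), Pdp1 (1.49) and Pdk4 (1.47). Between cerebrum and hypothalamus 2 were higher, Hkdc1 (1.58) and Slc16a7 (1.12), and 1 lower, Pgm1 (-1.29). Between aorta and vein Ppargc1a was higher (1.02) and Slc2a3, the neuronal glucose transporter, lower (-3.44).

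Estrus was compared with diestrus in each tissue, to ask whether the phase of the cycle goes with these enzymes. None of 458 tests of a member in a tissue was called (limma moderated test on 3 against 3 libraries, Benjamini-Hochberg over all genes tested), beside 0.00108% of 185469 tests of all genes. The other 67 combinations lay below the filter on low values, a mean of 1 FPKM. At an unadjusted p under 0.05 stood 38 of the 458 (8.30%), beside 7.84% of all genes. The 3 estrus and 3 diestrus values did not overlap in 60 (13.1%), beside 15.0% of all genes. The 95% interval lay within a difference of 1 in either direction in 359 of 458 (78.4%), so most members were measured closely enough to bound a change of that size, and 11 had a difference of at least 1. In a fit of all 90 libraries, which shares 1 spread among the tissues, 7 combinations were called, beside 1.66% of all genes. Aorta and uterus were the least precise, with median half-widths of the interval of 1.39 and 0.77, against 0.15 in hypothalamus.

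**Figure D4:**
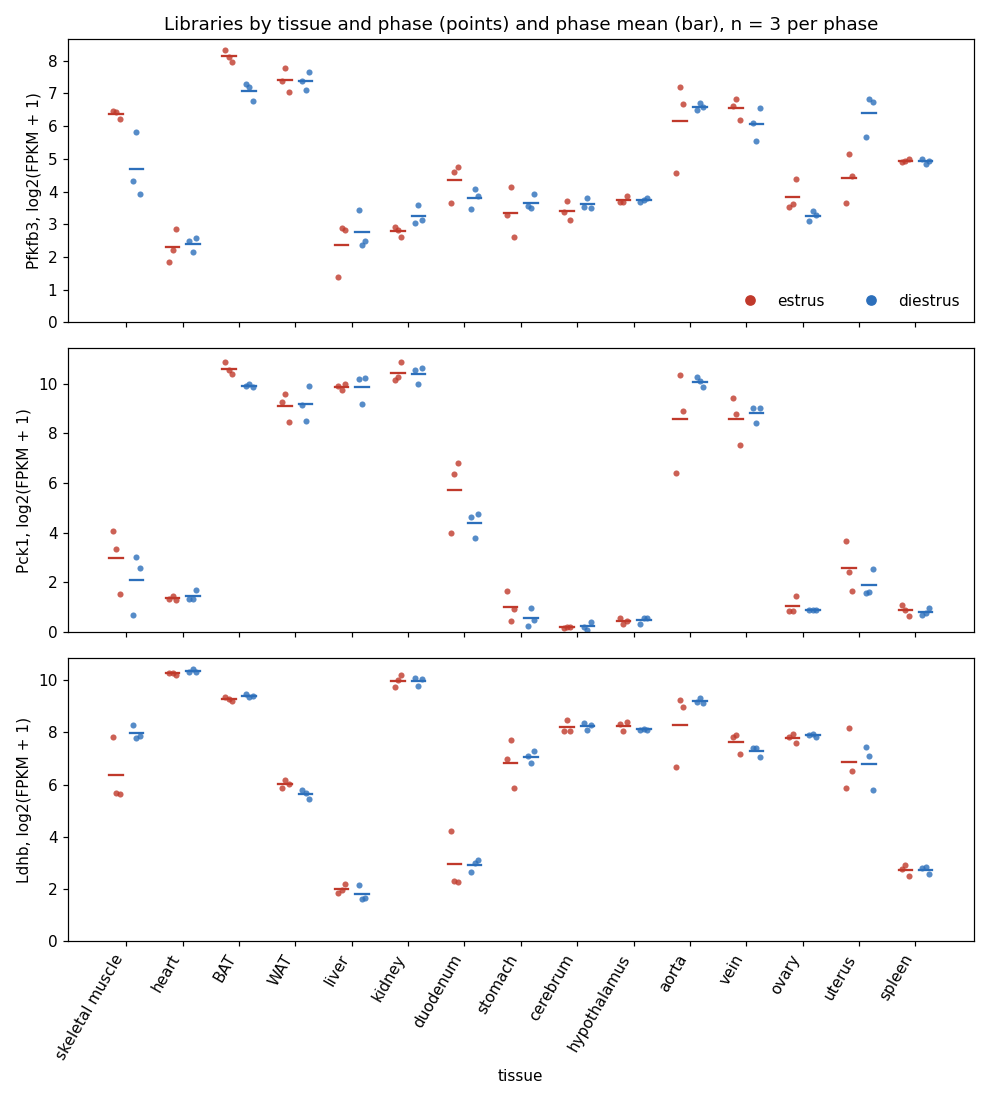
log2(FPKM + 1) of Pfkfb3, Pck1 and Ldhb in each library by tissue, estrus red and diestrus blue, with bars at the phase means (n = 3). Pfkfb3 of estrus lies above diestrus in BAT and skeletal muscle and below it in uterus without overlap, Pck1 lies above in BAT, and Ldhb in skeletal muscle is low in 2 of the 3 estrus libraries.

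Pfkfb3, the kinase that raises fructose 2,6-bisphosphate, gave the largest difference without overlap and differed in both directions. Directions given for the phases are those of library values in tests that were not called. In uterus it was at 11.4, 34.8 and 21.5 FPKM in the estrus libraries and 50, 112 and 105 in the diestrus libraries, a difference of -1.98 ± 0.48 (SE, 95% interval -3.11 to -0.84, adjusted p = 0.897), every estrus library being lower. In skeletal muscle it was at 86.4, 85 and 73.1 FPKM in the estrus libraries and 19.1, 55 and 14.2 in the diestrus libraries, a difference of 1.68 ± 0.44 (SE, 95% interval 0.65 to 2.70, adjusted p = 0.11), every estrus library being higher. Erythroid markers there were at 137, 48.9 and 210.3 FPKM in the estrus libraries and 1279, 110.2 and 1077 in the diestrus libraries, and the libraries richest in them, diestrus 1 and diestrus 3, were the lowest in Pfkfb3. Without those 2 libraries, an alternative chosen after seeing the data that leaves 1 diestrus library assumed to vary like the others, the skeletal muscle difference of Pfkfb3 was 0.55 (adjusted p = 0.867), and the part of blood in it was not tested. In BAT it was at 319, 276 and 248 FPKM in the estrus libraries and 155, 146 and 108 in the diestrus libraries, a difference of 1.05 ± 0.17 (SE, 95% interval 0.63 to 1.46, adjusted p = 0.18), again with estrus higher. Smaller differences without overlap stood in ovary (0.58, adjusted p = 0.828) and kidney (-0.47, adjusted p = 1.0). Without ovary estrus 3, which holds oviduct markers, the ovary difference was 0.31. In the fit of all 90 libraries Pfkfb3 was called in uterus (adjusted p = 0.000308), skeletal muscle (0.03) and BAT (0.0406), and in skeletal muscle also without diestrus replicate 2 (2.24, adjusted p = 0.0408). The difference between the phase effects in ovary and uterus was not called in its own test and was called in the fit of all 90 libraries (2.55, adjusted p = 0.00324).

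In uterus 8 of 32 members did not overlap between the phases, beside 7.91% of all genes. Pcx was lower in estrus, at 6.53, 13.3 and 23.9 FPKM in the estrus libraries and 25.8, 65.8 and 83.8 in the diestrus libraries, a difference of -1.94 ± 0.57 (SE, 95% interval -3.30 to -0.59, adjusted p = 0.897). Aldoc was higher in estrus, at 16.3, 5.7 and 37.9 FPKM in the estrus libraries and 5.32, 2.91 and 2.68 in the diestrus libraries, a difference of 1.88 ± 0.62 (SE, 95% interval 0.41 to 3.34, adjusted p = 0.897). Hk1 (-0.67, adjusted p = 0.897) was lower, and Eno1 (0.60, adjusted p = 0.897) and Pgk1 (0.58, adjusted p = 0.897) were higher. Uterus markers were at 158, 596 and 124 FPKM in the estrus libraries and 521, 841 and 613 in the diestrus libraries, and stratified epithelium markers at 161, 88 and 4518 FPKM in the estrus libraries and 17.5, 13.8 and 0.89 in the diestrus libraries. The libraries low in uterus markers were estrus 1 and estrus 3. Those were also the highest 2 of Aldoc and the lowest 2 of Pfkfb3, whereas Pcx was lowest in estrus 1 and estrus 2. Without estrus 3 the differences were -2.01 for Pfkfb3, -2.36 for Pcx and 1.26 for Aldoc. Estrus 1 stayed in that fit, and the part of the other tissue in these differences was not tested. Pcx and Aldoc were called in the fit of all 90 libraries (adjusted p = 0.00103 and 0.000116).

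In BAT 9 of 30 members did not overlap, beside 30.1% of all genes, a share near the background. Pck1 was higher in estrus, at 1857, 1491 and 1349 FPKM in the estrus libraries and 947, 1017 and 929.8 in the diestrus libraries, a difference of 0.69 ± 0.13 (SE, 95% interval 0.37 to 1.00, adjusted p = 0.192). Pygl was higher (0.62, adjusted p = 0.344) and Gys2 lower (-0.50, adjusted p = 0.433). Without estrus 3 and diestrus 3, the libraries that stand apart by zeros and by muscle markers, the differences were 0.98 for Pfkfb3 (adjusted p = 0.0643), 0.76 for Pck1 (0.0765), 0.26 for Pygl (0.263) and -0.32 for Gys2 (0.194). Pgam2, called in the fit of all 90 libraries (1.68, adjusted p = 0.0226), overlapped between the phases and moved with the muscle markers, as above.

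In skeletal muscle 7 of 30 did not overlap, beside 26.2% of all genes, again near the background. Pcx was higher in estrus (0.47, adjusted p = 0.111). Ldhb is named after its values were seen, because leaving out 1 library brought it past the threshold. It was at 223, 50.4 and 48.7 FPKM in the estrus libraries and 307, 218 and 232 in the diestrus libraries, low in estrus 2 and estrus 3 and high in the other 4. Without estrus replicate 1 the difference was -2.31 (adjusted p = 0.00319), and with it -1.59, adjusted p = 0.167. The markers of slow muscle fibres, a list added after seeing these values, summed to 659.7, 25 and 13.7 FPKM in the estrus libraries and 2348, 728 and 681 in the diestrus libraries, lowest in the same 2 libraries. Ldhb is known as the form of slow fibres, and the part of fibre type in the difference was not tested. The difference between the phase effects of Ldhb in skeletal muscle and heart was -1.50 with all libraries (adjusted p = 0.325, limma interaction), not called. Without replicate 1 it was -2.03 (adjusted p = 0.000233). Both exclusions drop skeletal muscle estrus 1, the estrus library whose Ldhb lies within the diestrus values. They were chosen by those values and are not separate support for a phase difference.

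In vein 7 of 33 did not overlap, beside 18.2% of all genes. Gys2 was at 25.4, 27.5 and 15 FPKM in the estrus libraries and 10.2, 8.98 and 13.4 in the diestrus libraries, a difference of 0.97 ± 0.25 (SE, 95% interval 0.38 to 1.55, adjusted p = 0.412), and Pfkl (0.59, adjusted p = 0.412) and Eno1 (0.56, adjusted p = 0.412) were higher in estrus too. Hepatocyte markers in vein were at 1671, 1641 and 1682 FPKM in the estrus libraries and 1155, 539 and 1020.0 in the diestrus libraries, higher in estrus without overlap, and adipocyte markers at 2030.2, 3206 and 2309.8 FPKM in the estrus libraries and 1856, 1124 and 2221 in the diestrus libraries. The same hepatocyte list summed to 1570 to 3959 FPKM in WAT, so it does not set liver apart from fat. Hk2 was called in the fit of all 90 libraries (1.21, adjusted p = 0.024) and was at 14.4, 54 and 36.8 FPKM in the estrus libraries and 14.6, 12.8 and 11.1 in the diestrus libraries, with overlap. The part of other tissues in these values was not tested.

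Eno2 in WAT was higher in estrus (0.78, adjusted p = 0.791) and the difference without estrus 1, the library with smooth muscle markers, was 0.37. Pklr (-0.55, adjusted p = 0.671) and Pfkfb2 (-0.47, adjusted p = 0.671) in stomach were lower in estrus. In stomach without the libraries that stand apart these were -0.58 and -0.26.

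Whether the phase effect differed between paired tissues was tested as an interaction. None of 216 tests of a member was called (limma), beside 0.0168% of all genes, and 20 (9.26%) stood at an unadjusted p under 0.05 beside 7.25% of all genes. Of the 561 tests of accessory genes between the phases 0 were called (limma), with 70 (12.5%) at an unadjusted p under 0.05, beside 7.84% of all genes.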

How the data were processed

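Per the labels and the methods of the study, the authors sequenced polyadenylated RNA of 15 tissues, filtered reads with SOAPnuke, mapped them with Bowtie2 2.2.5 to GRCm38.p5 transcripts and deposited FPKM values made with RSEM 1.2.8, 1 table of 20414 genes and 90 libraries. The study gives an approximate number of reads per sample. No counts were used here, so the read depth of each library is unknown, and the count model of the study was replaced by limma.

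Values were tested as log2(FPKM + 1), after genes averaging under 1 FPKM were dropped, with limma 3.58.1 in R 4.3.3 (intensity trend, Benjamini-Hochberg). A call needed a difference of 1 or more together with an adjusted p no higher than 0.05. Isoenzyme ratios were tested by exact permutation (scipy 1.17.1). The scripts were tested on simulated data. All 35 members are shown. Between tissues the members called are named, and between phases, with none called, the 20 combinations of largest difference among those without overlap. Others were chosen after their values were seen. The members and lists were chosen with earlier results of these data known. Labels do not tie replicate numbers to mice, so p-values measure the spread between these libraries. Deviations of same-numbered libraries of paired tissues were positively correlated throughout in liver and kidney (0.108 to 0.235). The same held in ovary and uterus (0.0299 to 0.265) and in aorta and vein (0.00169 to 0.434). In liver and kidney the blocked calls were again 5 higher and 17 lower. Alternatives were the pseudocount, the filter, scaling, the replicate block, leaving out replicates, 1 fit of all libraries and, added after seeing the data, leaving out the 10 libraries that stand apart or the 3 rich in blood markers.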

Additional observations from a re-analysis of the deposited data

How the results depend on the processing

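Between the phases 0 member differences were called, 0 to 1 when 1 replicate was left out, 0 with the replicate block, and 7 in 1 fit of all 90 libraries. For the interaction the counts were 0, 0 to 1, 0 and 2. Between cerebrum and hypothalamus 1 was called, 2 with a pseudocount of 0.1, 0 with a filter of 5 FPKM, 2 with totals set equal and 0 to 1 without a replicate. In ovary against uterus 5 were called and 3 to 6 without a replicate. In aorta against vein 7 were called, 6 with the replicate block, 6 to 11 without a replicate and 12 without the libraries that stand apart, an alternative chosen after seeing the data. Over all pairs the replicate block gave 93 calls in place of 94, and 69 ratios in place of 73 by sign flips within pairs. The cause of these changes was not tested. Without the 3 libraries rich in blood markers, also chosen after seeing the data, 93 were called and 0 between phases. Of the 94 calls 21 were lost in at least 1 setting, and 73 were called in every setting in which they were tested. Of those 73, 4 lay below the filter of 5 FPKM and were not tested with it. Without counts the depth limits of low genes cannot be given.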
